A study of Mus musculus with 6 samples.

Results

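The genes described here encode 53BP1 (Trp53bp1), its effector RIF1 (Rif1) and the 4 subunits of shieldin (Shld1, Shld2, Shld3 and Mad2l2, whose product is REV7). They were taken by symbol from a deposited table of 21512 genes, because Shld2 was lower in every library of 1 treatment group. Of these 6 genes, 5 were matched to a row: Shld1 (ENSMUSG00000044991), Shld2 (ENSMUSG00000041471), Mad2l2 (ENSMUSG00000029003), Rif1 (ENSMUSG00000036202) and Trp53bp1 (ENSMUSG00000043909). Shld3 had no identifier in the table of gene names used, and its level was not analysed here. The genes were selected on the Shld2 values of these 6 libraries, so its difference is given as a description, without a test. All mice were C57BL/6J with no labelled allele, and all received carbon tetrachloride, a hepatotoxin, and a high-fat diet for 12 weeks, a model of steatohepatitis with fibrosis. During that time, 3 mice received an isotype control antibody and 3 received an antibody against PD-1, an inhibitory receptor of activated T cells, every 3 days. Whole-liver total RNA gave 1 library per mouse, after removal of ribosomal RNA and with a kit that keeps strand. Age and sex are not given in the sources used here, and untreated livers were not analysed here. Titles set the groups, since in replicates 2 and 3 of the antibody group the treatment label carries another number after "PD".

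A broken DNA double strand can be rejoined directly or copied from an intact sister. 53BP1 binds the modified chromatin around a break and carries RIF1 and shieldin there. Shieldin coats the single-stranded tails and limits further trimming of the ends, which favours direct joining, and B cells need it to switch antibody class. Within shieldin, SHLD3 links REV7 to SHLD2, and SHLD2, with SHLD1, makes the contact with single-stranded DNA.

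The start regions of 3 of these genes are printed because Shld2, the gene the choice rests on, begins next to another gene. RefSeq windows of 300 bases, from 250 before to 50 after a start, were found for 5 of the 6 genes (build GRCm38.p6, older than the GRCm39 named for the deposited values). Rif1 had none in the table used. Capitals mark the GC box GGGCGG, which Sp factors bind, the CCAAT box CCAAT, or the core GCGCANGC of the NRF1 motif, each searched on both strands with overlaps allowed.
Shld2, chr14:34310468-34310767, minus strand: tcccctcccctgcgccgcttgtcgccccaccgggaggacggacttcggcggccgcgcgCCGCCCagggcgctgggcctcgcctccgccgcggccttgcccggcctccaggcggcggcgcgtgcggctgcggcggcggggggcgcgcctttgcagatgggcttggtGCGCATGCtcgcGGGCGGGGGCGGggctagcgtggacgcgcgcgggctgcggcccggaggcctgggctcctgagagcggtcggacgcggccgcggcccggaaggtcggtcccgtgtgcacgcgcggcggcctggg
Shld1, first of 3 windows, chr2:132686681-132686980, plus strand: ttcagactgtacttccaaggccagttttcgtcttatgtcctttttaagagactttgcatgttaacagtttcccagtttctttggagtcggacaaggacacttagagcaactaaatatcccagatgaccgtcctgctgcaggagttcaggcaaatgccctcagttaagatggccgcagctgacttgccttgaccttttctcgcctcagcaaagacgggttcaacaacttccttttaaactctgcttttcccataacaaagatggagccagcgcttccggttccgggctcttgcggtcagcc
Trp53bp1, chr2:121271358-121271657, minus strand: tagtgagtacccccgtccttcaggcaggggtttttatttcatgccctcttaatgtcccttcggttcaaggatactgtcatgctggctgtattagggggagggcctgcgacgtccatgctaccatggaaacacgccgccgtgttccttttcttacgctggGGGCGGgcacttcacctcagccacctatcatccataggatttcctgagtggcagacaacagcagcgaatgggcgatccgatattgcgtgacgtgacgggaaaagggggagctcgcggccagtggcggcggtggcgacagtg
The Shld2 window was 81.7% G and C with 52 CpG pairs, against medians of 52.7% and 7 over 32851 windows, and lay above 99.4% of them in G and C. It held 3 GC boxes, at -192, -73 and -67 from the start, and 1 NRF1 core at -85. The Shld1 window printed was 48.3% G and C and held none of the 3 motifs. The Trp53bp1 window was 57.3% G and C and held 1 GC box, at -91. Mad2l2, not printed, was close to Shld2 in its first window, at 79.0% G and C with 41 CpG pairs and 2 GC boxes. Its second window was 58.7% G and C and held 1 GC box, at -80, and 1 CCAAT box, at -22. An NRF1 core also lay at -148 in the second Shld1 window and at -247 in the Shld3 window. Over all windows, 35.7% held a GC box, 37.4% a CCAAT box and 9.95% an NRF1 core. The E-box CACGTG and the TATA box TATAAA, in 7.15% and 13.6% of all windows, were also searched and were not found in the windows of these genes. A match of letters does not show that a factor binds there.

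The Shld2 window overlapped that of Glud1, on the opposite strand, by 291 of its bases. Glud1 encodes glutamate dehydrogenase, a mitochondrial enzyme abundant in liver. Of 27025 genes with a window, 11.9% overlapped a window of another gene on the opposite strand, and 2.55% did so by at least 250 bases. Mad2l2 also has such a partner, Draxin, with an overlap of 279 bases, and Draxin was listed at 0 to 0.24 units in the 6 libraries.

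Shld2 was picked because it was lower in every anti-PD-1 library, so the separation of its values follows from that choice and is only described. Levels are given in units of the deposited table, which are CPM, read counts scaled to a common library size. Shld2 stood at 40.5, 39.4 and 34.9 units in isotype control replicates 1 to 3 and at 22.9, 20.8 and 21.7 units in anti-PD-1 replicates 1 to 3. The 3 anti-PD-1 values all lay below the 3 control values, and the groups did not overlap. The means were 38.3 ± 2.93 and 21.8 ± 1.05 units (SD, n = 3), a level 43.1% lower after anti-PD-1. These values rest on 695 to 750 reads per control library and 312 to 476 per anti-PD-1 library. Exact Poisson intervals (95%), which leave out variation between mice, ran from 32.4 to 37.6 units in the lowest control library. In the highest anti-PD-1 library the interval ran from 20.9 to 25.01 units. These intervals describe counting error only and do not test a difference that the choice was based on. The fitted log2 fold change, on log2(value + 0.5), was -0.80 ± 0.11 (SE). The log2 fold change lay between -0.86 and -0.76 when any 1 library was left out. Its sign could not turn there, because the groups do not overlap. In whole-liver RNA, fewer cells of a type and less RNA per cell cannot be told apart.

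**Figure D1:**
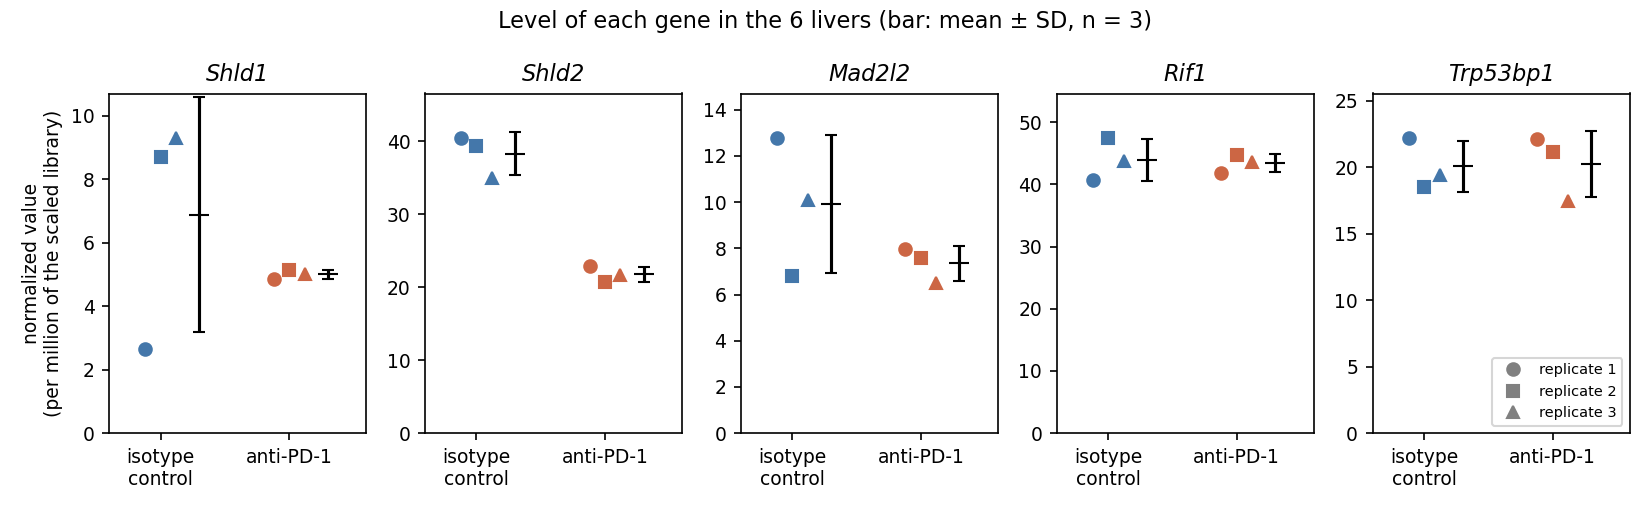
Level of the 5 genes in each liver, in CPM of the scaled library on axes that start at 0, with symbols for replicates 1 to 3 and bars for the mean ± SD (n = 3). The Shld2 values of the anti-PD-1 livers, at 20.8 to 22.9, all lie under the control values of 34.9 to 40.5, while the groups overlap for the other 4 genes.

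Shld1, the partner of SHLD2 in binding single-stranded DNA, was the least even of the genes among the controls. It stood at 2.64, 8.71 and 9.30 units in isotype control replicates 1 to 3 and at 4.85, 5.13 and 5.02 units in anti-PD-1 replicates 1 to 3. The anti-PD-1 values were close together and lay between the low control and the other 2. The low control value came from 49 reads, with an exact Poisson interval of 1.96 to 3.50 units, below that of every other library. The log2 fold change was -0.26 with a 95% interval of -1.20 to 0.69 (limma adjusted p = 0.845). It was -0.79 when control 1 was left out (limma adjusted p = 0.387), -0.014 when control 2 was, and 0.031 when control 3 was. Size and sign of the Shld1 difference thus turned on which control library was used.

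Mad2l2, which encodes REV7, a subunit shared by shieldin and the translesion polymerase zeta, was spread in the controls as well. Its levels were 12.8, 6.82 and 10.1 units in isotype control replicates 1 to 3 and 7.97, 7.59 and 6.52 units after anti-PD-1. All anti-PD-1 values lay under 2 of the control values, and 2 of them lay above the lowest control. The means were 9.90 ± 2.99 and 7.36 ± 0.75 units, and the log2 fold change was -0.37, with a 95% interval of -0.89 to 0.16 (limma adjusted p = 0.581). With control 1 left out it was -0.17, and with control 2 left out it was -0.60. Isotype control replicate 1 thus held the highest Mad2l2 and the lowest Shld1 value of the 6 livers.

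Upstream of shieldin, Rif1 and Trp53bp1 were at similar levels in both groups. Rif1, which 53BP1 carries to breaks and which in turn recruits shieldin, was at 40.7, 47.5 and 43.7 units in controls and 41.8, 44.7 and 43.6 units after anti-PD-1. Its anti-PD-1 values fell inside the control range, and the fold between groups was bounded by 0.843 and 1.16 (95% interval, limma adjusted p = 0.967). Trp53bp1 was at 22.2, 18.6 and 19.5 units in controls and 22.1, 21.2 and 17.4 units after anti-PD-1. Its groups overlapped, with a fold bounded by 0.81 and 1.25 (adjusted p = 0.988). In both genes the sign of the log2 fold change, -0.02 for Rif1 and 0.01 for Trp53bp1, turned when single libraries were left out. The intervals of the fold were wider for Shld1 (0.435 to 1.61) and Mad2l2 (0.539 to 1.12). Whether Shld2 differed from the other genes was not tested, because it was picked for its difference. In the GENCODE M21 models, exons of Trp53bp1 share 2130 bases with exons of Tubgcp4 on the opposite strand, 15% of the Trp53bp1 exon length. The library kit keeps strand, but the counting is not stated to use it, so reads there could belong to either gene. Tubgcp4 was at 24.6 ± 4.49 units in controls and 20.8 ± 1.44 units after anti-PD-1. No transcript of another gene matched Shld2, Shld1, Mad2l2 or Rif1 over at least 100 bases at 95% identity or more.

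**Figure D2:**
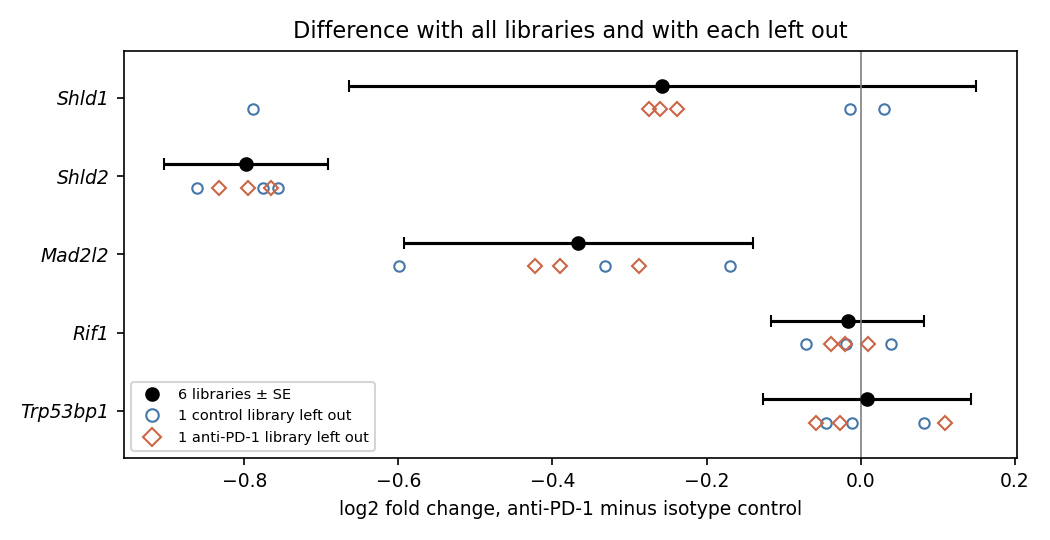
Log2 fold change of each gene, anti-PD-1 minus isotype control, with all 6 libraries (filled points ± SE) and with each library left out in turn (open symbols). The open symbols of Shld2, the gene picked for its difference, stay between -0.86 and -0.76. Those of Shld1 spread from -0.79 to 0.03, the lowest being the fit without isotype control replicate 1.

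Tests are given for the 4 genes other than Shld2. By the limma fit over 13990 genes with Benjamini-Hochberg adjustment, 0 of the 4 passed the threshold of 0.05, beside 0.00715% of all genes tested (1 gene higher, 0 lower). With the replicate number as a block, 0 of the 4 passed beside 0.286% of all genes (0.193% higher, 0.0929% lower). By edgeR 0 of the 4 passed beside 0.0% of all genes, and by DESeq2 0 of the 4 passed beside 1.87% (1.08% higher, 0.786% lower). At an unadjusted p under 0.05 the limma fit held 0 of the 4, beside 11.3% of all genes. The groups overlapped for all 4, while over all genes tested 9.98% had groups apart with anti-PD-1 lower, 7.13% with anti-PD-1 higher and 17.1% in either direction. Exact permutation of 3 against 3 livers cannot give a p under 0.1. The mice are labelled as separate animals.

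To set the levels of different genes side by side, each was divided by the length of its longest GENCODE M21 transcript. Per kilobase of transcript, the control means were 11.5 ± 0.88 units for Shld2, 6.45 ± 1.95 for Mad2l2, 5.17 ± 0.40 for Rif1, 4.68 ± 2.51 for Shld1 and 2.09 ± 0.20 for Trp53bp1. Shld2 had the highest mean and Trp53bp1 the lowest, and the other 3 did not differ beyond their spread. After anti-PD-1 the length-scaled levels were 6.56 ± 0.32 for Shld2, 5.10 ± 0.17 for Rif1, 4.80 ± 0.49 for Mad2l2, 3.398 ± 0.094 for Shld1 and 2.10 ± 0.26 for Trp53bp1. Mad2l2 and Rif1 were again within their spread of each other. The order depends on the length used: over all exons of a gene, Shld2 led in controls (6.68 against 4.19 for Rif1), but after anti-PD-1 it stood at 3.80, below Rif1 at 4.13.

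Glud1, whose start window overlaps that of Shld2, had overlapping groups. Glud1 was at 989, 769 and 968 units in controls and 800, 875 and 925 units after anti-PD-1. On the log2 scale the difference was -0.06, with a 95% interval of -0.40 to 0.28 (limma adjusted p = 0.901). Syt15, a synaptotagmin gene and the nearest protein-coding neighbour on the other side, was at 0.54, 0.65 and 0.50 units in controls and 0.72, 0.40 and 0.26 units after anti-PD-1, too low for the fit. The fold of Glud1 was bounded by 0.757 and 1.21. The difference between Shld2 and Glud1 was not tested.

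**Figure D3:**
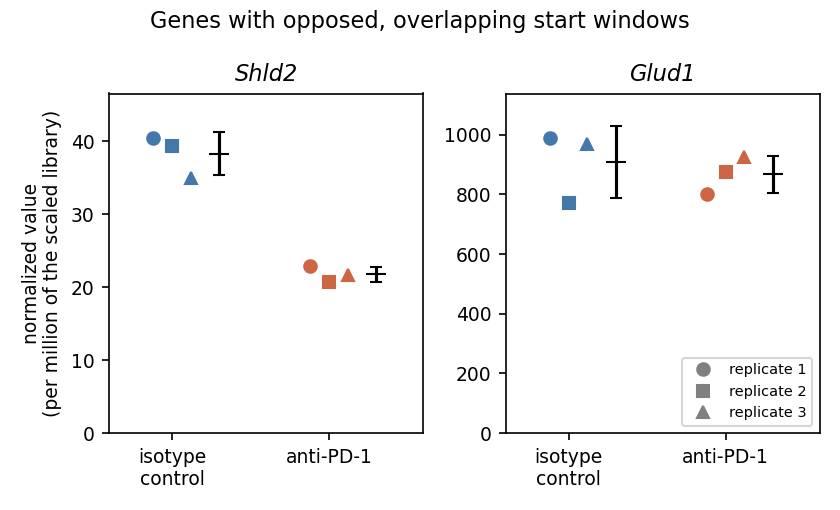
Levels of Shld2 and of Glud1 in each liver, in CPM of the scaled library, with symbols for replicates 1 to 3 and bars for the mean ± SD (n = 3). The Shld2 means are 38.3 and 21.8 with values apart, while the Glud1 means of 909 and 867 have overlapping values.

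The 5 tested genes whose pattern over the 6 libraries was most like that of Shld2, by Pearson's r on the log2 scale, were Mgme1 (0.992), Gm26588 (0.992), 1700020I14Rik (0.99), Bdnf (0.99) and Commd9 (0.989). Mgme1, an exonuclease of mitochondrial DNA, was at 6.85, 6.87 and 6.49 units in controls and 4.76, 4.33 and 4.24 units after anti-PD-1. Bdnf, a neurotrophin gene, was at 3.13, 3.25 and 2.97 units in controls and 1.73, 1.33 and 1.45 units after anti-PD-1. Since the Shld2 values form 2 separate groups, any gene with an even group difference scores high, and 357 tested genes reached 0.9. Against Shld2, r was 0.57 for Mad2l2, 0.12 for Shld1, 0.058 for Rif1 and 0.026 for Trp53bp1, as a description of 6 libraries.

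Around these genes, 7 lists of break repair genes held 66 genes, of which 65 were matched and 59 were high enough to be tested. By limma 0 of the 59 passed in either direction, beside 0.00715% of all genes, and none passed with the replicate block, by edgeR or by DESeq2. At an unadjusted p under 0.05, 6 were lower (10.2%, against 6.24% of all genes tested) and 1 was higher (1.69%, against 5.04%). The groups did not overlap for 8 that were lower (13.6%, against 9.98%) and 3 that were higher (5.08%, against 7.13%). Several genes named below for the smallest p of their list are among these. The median log2 fold change of the 59 was -0.08, and that of all genes tested was 0.003. Of the 59, 38 were negative (64.4%, against 49.5% of all genes tested).

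Of the factors that bring 53BP1 to chromatin or hold it off, 9 of 11 tested had negative log2 fold changes (median -0.15). Over all genes tested 49.5% did, and 0 of the 11 passed. Rnf168, the ubiquitin ligase whose histone mark 53BP1 reads, was at 16.1, 14.4 and 13.4 units in controls and 11.3, 10.4 and 10.1 units after anti-PD-1. The groups did not overlap, and the log2 fold change was -0.44 ± 0.13 (SE, limma adjusted p = 0.291). Mdc1, a scaffold that binds phosphorylated H2AX, named after its values were seen, was at 16.3, 20.1 and 18.7 units and then 15.8, 13.4 and 13.2 units (adjusted p = 0.381). The kinase gene Atm, like Trip13, Brca1, Xrcc5 and Prkdc below named for its role after the values were seen, was at 35.0, 37.9 and 35.4 units and then 37.4, 32.9 and 33.8 units, with overlapping groups. Kmt5c, a methyltransferase of histone H4, had the smallest p among the positive ones, at 8.15, 8.12 and 6.54 units and then 9.03, 8.99 and 6.88 units (adjusted p = 0.828).

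Of 15 genes for factors that act with or on 53BP1, RIF1 and REV7, 7 were positive and 8 negative (median -0.03), and 0 passed. Mad2l1bp, which works with the ATPase TRIP13 to open REV7 and so take shieldin apart, was at 5.56, 5.14 and 5.43 units in controls and 4.32, 2.73 and 3.16 units after anti-PD-1. Its groups did not overlap, with a log2 fold change of -0.61 ± 0.20 (SE, limma adjusted p = 0.34). Trip13 itself was at 1.78, 0.97 and 1.31 units and then 0.96, 1.13 and 0.93 units. Paxip1, which encodes PTIP, another 53BP1 effector, was at 14.6, 14.3 and 15.2 units and then 14.0, 19.6 and 16.1 units (adjusted p = 0.713).

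Among the end-resection genes, which act against shieldin, 4 of 7 tested were positive (57.1%, against 50.5% of all genes tested). Their median was 0.14, and 0 passed. Rbbp8, which encodes CtIP, the starter of resection, was at 12.4, 12.8 and 13.3 units in controls and 21.3, 15.4 and 17.2 units after anti-PD-1. All its anti-PD-1 values lay above the controls, with a log2 fold change of 0.46 ± 0.14 (SE, limma adjusted p = 0.319). Brca1, the antagonist of 53BP1 in pathway choice, was at 3.08, 4.06 and 3.97 units and then 4.90, 4.53 and 4.14 units (adjusted p = 0.619). Rad50, of the nuclease complex that senses breaks, was at 15.3, 12.9 and 17.2 units and then 13.8, 13.7 and 11.02 units (adjusted p = 0.613). Dna2, named after its values were seen, was lower without overlap. It was at 9.50, 9.63 and 9.60 units and then 7.78, 8.92 and 9.26 units (limma adjusted p = 0.717). With control 1 left out the median of this list was -0.025, and with control 3 left out it was 0.21.

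Of the genes for direct end joining, 8 of 9 had negative log2 fold changes (median -0.09), beside 49.5% of all genes tested, and 0 passed. Lig4, the ligase that seals the joined ends, was at 8.58, 5.68 and 5.58 units in controls and 4.32, 3.53 and 2.74 units after anti-PD-1. Its groups did not overlap, and its log2 fold change was -0.81 ± 0.23 (SE, limma adjusted p = 0.286). The Ku gene Xrcc5 and the kinase gene Prkdc had overlapping groups, with log2 fold changes of -0.09 and -0.07. Paxx, a partner of Ku, was at 12.4, 3.46 and 4.17 units and then 6.24, 6.99 and 5.23 units, so that isotype control replicate 1 stood apart for this gene too (adjusted p = 0.954).

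Homologous recombination was represented by 9 tested genes, 6 of them negative (median -0.09). Rad51b was at 6.10, 4.27 and 8.75 units in controls and 5.14, 2.86 and 2.48 units after anti-PD-1, with overlapping groups (limma adjusted p = 0.418). Rad54l, a motor of strand exchange, was at 0.81, 0.97 and 1.21 units and then 1.63, 1.00 and 1.03 units (adjusted p = 0.815). Of 4 tested genes of alternative end joining, 2 were positive. Lig3 was at 33.7, 29.3 and 30.7 units and then 34.4, 35.2 and 33.8 units (limma adjusted p = 0.621). Parp1 was at 43.9, 37.0 and 47.2 units and then 38.3, 37.4 and 41.5 units (adjusted p = 0.731). Polq, named after its values were seen, fell under the filter. It was at 1.94, 0.97 and 0.90 units and then 1.10, 0.40 and 0.26 units, with overlapping groups. With no filter, which takes in Polq, the list median was -0.09, against -0.03 with the filter.

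For class switching, the B cell process that needs shieldin, 2 of 4 tested genes were positive, and 0 passed. Msh6, a mismatch repair gene, was at 22.9, 21.6 and 20.9 units and then 18.6, 16.8 and 15.8 units, without overlap (limma adjusted p = 0.347). Ung, the uracil glycosylase gene, was at 1.94, 3.19 and 2.92 units and then 3.07, 4.99 and 4.81 units (adjusted p = 0.445). The 7 B and plasma cell markers summed to 6.59 to 15.6 units in controls and 6.06 to 27.5 units after anti-PD-1.

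**Figure D4:**
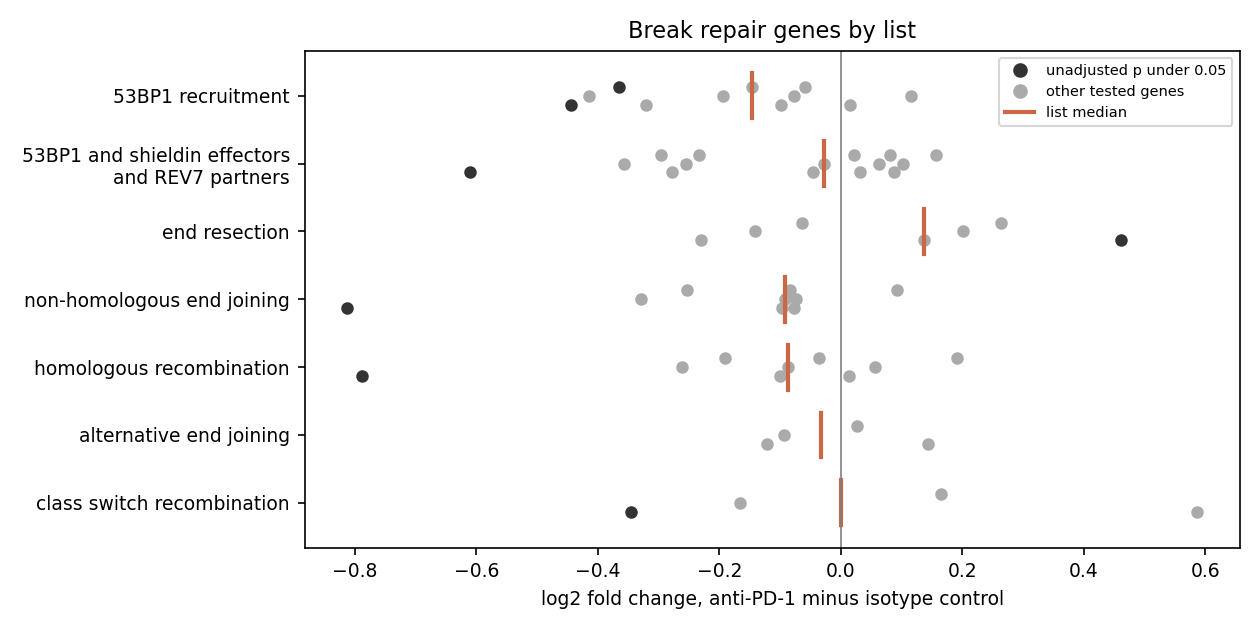
Log2 fold change of each tested gene, anti-PD-1 minus isotype control, in the 7 break repair lists, with the list median as a bar and genes at an unadjusted p under 0.05 in dark points. Dark points are 6 on the negative side, Lig4 at -0.81 being the farthest, and 1 on the positive side, Rbbp8 at 0.46, and none passed after adjustment.

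Recovered depth ran from 15528364 to 20779319 reads per library. Hepatocyte markers, with Alb at 46646 to 69086 units, were present in all 6 livers and summed to 80342 to 102936 units in controls and 77489 to 95658 units after anti-PD-1. By limma 0 markers of these and other cell types passed. The 9 T cell markers summed to 2.61 to 4.21 units in controls and 6.79 to 44.8 units after anti-PD-1, without overlap and highest in anti-PD-1 replicate 1. Only 2 of the 9 were high enough to be tested, and both reached the filter only in the anti-PD-1 livers, so their direction was set by the filter. None of the 9 was at 0 in any library. All 6 Kupffer cell markers had negative log2 fold changes (median -1.70, lowest -3.21), with sums of 153 to 358 and 148 to 197 units. Although these sums overlapped, 5 of the 6 were lower at an unadjusted p under 0.05 by limma (83.3%, against 6.24% of all genes tested). For 4 of the 6 the groups did not overlap (66.7%, against 9.98%). Of 12 tested proliferation markers 11 were negative (median -0.47), with sums of 79.4 to 147 and 62.8 to 111 units, highest in isotype control replicate 1. Stellate, sinusoidal endothelial and bile duct markers overlapped between the groups in their sums. The part of these cell markers in the Shld2 and repair gene values was not tested.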

How the data were processed

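Whole-liver RNA of 6 mice was measured. The deposited table, made by the authors, holds 1 normalized signal per gene and library, and per the submitters' processing notes the build was GRCm39 and the tools, whose roles are not stated, included Bowtie2, RSEM 1.3.0, Trimmomatic 0.38 and edgeR. In each library the low values step by a fixed amount worth 1 read, and 100% came out as whole reads within 0.001 read. The deposited signal therefore reads as CPM of a scaled library. Symbols were matched for 21407 of 21512 identifiers, and the other identifiers held 1.2 to 2.7% of reads. Intervals on counts cover counting error only.

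Tests used genes that reached 1 unit in 3 or more libraries, with limma 3.58.1 (R 4.3.3, intensity trend, two-sided) on log2(value + 0.5), adjusted over all of them. As alternatives, recovered reads went into DESeq2 1.42.0 and edgeR 4.0.16, and BLAST 2.17.0 compared transcripts. The fits were tested on simulated counts. The genes and lists were chosen with earlier results of these data known. Named genes are the members, in each repair list the gene with the smallest p per direction, the 5 genes most like Shld2 and its 2 neighbours. Other genes were named after their values were seen (Mdc1, Atm, Trip13, Brca1, Dna2, Xrcc5, Prkdc, Polq, and genes beside or overlapping the other members). L3mbtl1 had no matched row, and some genes of the lists are counted but not reported by name here.

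The titles number the mice 16, 17 and 18 (isotype control replicates 1 to 3) and 20, 21 and 22 (anti-PD-1 replicates 1 to 3). What the replicate numbers mark is not stated. Same-numbered libraries deviated together from their group means (r of 0.15, 0.13 and 0.25), while those with unlike numbers had r of -0.22 to 0.063. Deviations from a group mean cancel out within the group. Positive r for some pairs therefore forces negative r for others, and the contrast is in part arithmetic. From these values the numbers were taken to pair the mice, and a fit with the replicate block was run. No label supports the pairing, and it was drawn from the values that the block was then fitted to. The calls of that fit are therefore given only as an alternative.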

Additional observations from a re-analysis of the deposited data

How the results depend on the processing

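Over up to 14 alternatives (Rad54l and Ung give no value under the filter of 5 units), 19 of 28 results kept their direction and their side of the threshold or stayed within the spread between replicates. The filters and the block leave the fitted difference of a gene unchanged. A gene that did not pass counted as kept wherever it again did not pass with the same sign. This includes Rad54l by DESeq2, which gave no adjusted p. The tally therefore does not measure how sturdy the differences are. For Shld2, picked for its difference, the log2 fold change ran from -0.86 to -0.76. The count of genes higher and lower by limma on all libraries (1 and 0) was 27 and 13 with the replicate block, which changed no call among Shld1, Mad2l2, Rif1, Trp53bp1 or the repair lists. It was 151 and 110 by DESeq2, 0 and 0 by edgeR, and 0 to 24 and 0 to 6 when 1 library was left out, the highest being without anti-PD-1 replicate 1, with 2 higher when control 2 and 0 when antibody replicate 3 was left out. The log2 fold change of Trp53bp1 was -0.010 with quantile normalization and -0.058 to 0.11 with 1 library left out. That range was -0.071 to 0.040 for Rif1, -0.79 to 0.031 for Shld1 and -0.60 to -0.17 for Mad2l2. Paxx was at -0.11 by edgeR, -0.10 by DESeq2 and -0.23 to 0.62 with 1 library left out. The end resection median was 0.036 with the filter of 5 units, which tests fewer genes, and -0.025 to 0.21 with 1 library left out. The alternative end joining median was -0.12 to 0.063 with 1 library left out. The class switching median was 0.16 with no filter and -0.17 with the filter of 5 units. For results other than those of the filters, the cause was not tested. Syt15, at 5 to 15 reads per library, and Draxin, at 0 to 5, were too low for a fit.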

Other observations

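Isotype control replicate 1, which held the lowest Shld1 and the highest Mad2l2 and Paxx values, was also low for Gpcpd1, a glycerophosphodiesterase gene next to Shld1, named after its values were seen. Gpcpd1 was at 47.7, 208 and 283 units in isotype control replicates 1 to 3 and at 293, 860 and 888 units after anti-PD-1. Its groups did not overlap, and its log2 fold change was 2.10 ± 0.69 (SE, limma adjusted p = 0.343), opposite in sign to that of Shld1. Trappc13 and Trim23, the neighbours of Shld3, were at 33.7 ± 1.11 and 19.8 ± 0.46 units in controls and at 31.0 ± 2.31 and 19.0 ± 1.40 units after anti-PD-1. Trim23 has a start window that overlaps that of Shld3 by 121 bases on the opposite strand.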
